A study of Mus musculus with 23 samples.

Results

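The genes described here are 46 protein-coding genes of the nucleolus and of ribosome biogenesis, chosen by symbol from a fixed list of names, with no threshold on a measured value. All 46 were found among the 56196 genes counted, and all 46 passed the filter on low counts in the 3 fits the report rests on. They were measured in mouse samples labelled wild-type (WT) or Eif4enif1+/- (het), which carry 1 mutant copy of Eif4enif1, the gene for 4E-T, a partner of the cap-binding factor eIF4E and a component of P-bodies. Germinal vesicle (GV) oocytes, fully grown oocytes in meiotic prophase, gave 2 libraries of ribosome-bound mRNA (translatome) and 2 of total mRNA (transcriptome) per genotype. Embryos gave 3 libraries of total mRNA in each of 5 groups: 1-cell embryos of either genotype without treatment, 2-cell embryos of either genotype after 24 h of culture, and het embryos that were still at 1 cell after 24 h of culture (arrested). The labels leave out the structure of the mutant allele, the strain, the age of the animals, and whether an embryo's genotype is its own or its mother's. They also do not tie replicates to separate animals. The p-values therefore describe only how far these libraries spread, part of which may be technical.

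Ribosomal RNA is transcribed in the nucleolus by RNA polymerase I, modified under the guidance of box C/D and box H/ACA small nucleolar ribonucleoproteins (snoRNPs), and cut and folded into the 40S and 60S subunits by large sets of assembly factors. The fully grown mouse oocyte stops most transcription, its nucleolus turns into a compact body without ribosomal RNA synthesis, and the embryo inherits that body together with stored mRNA. Working nucleoli are rebuilt from the 2-cell stage on, as the embryonic genome becomes active. The 46 genes were grouped by role into 3 box C/D snoRNP proteins, 5 box H/ACA proteins and snoRNP chaperones, 3 nucleolar histone and RNP chaperones, 10 subunits or regulators of RNA polymerase I, 15 factors of the small subunit processome and 40S maturation, and 10 factors of 60S assembly.

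Promoters from RefSeq, 250 bases before to 50 after each annotated start on GRCm38.p6, were available for 41 of the 46 genes, as 49 promoters. They were searched on both strands for 3 motifs that common promoter-binding factors recognise: CACGTG (the palindromic E-box of MYC and USF), CCGGAAG (a core bound by ETS factors) and CCAAT (the NF-Y box). CCGGAAG was present in 13 of the 49 promoters (26.5%), in 8.86% of all 32851 promoters in the table and in 14.4% of the 16948 promoters of genes tested in embryos. CACGTG was present in 8 of the 49 (16.3%), against 7.15% and 9.07%. CCAAT was present in 17 (34.7%), against 37.4% and 38.7%. A match describes the letters in this window and is not evidence of binding. Below are the promoters of the 5 genes with the largest fitted rise from WT 1-cell to 2-cell embryos among those in the table, and that of Utp18, which alone among the 46 genes was lower at the 2-cell stage by the test, each 5′ to 3′ with every match to the 3 motifs in capitals.

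Nop16, chr13:54590025-54590324, strand minus: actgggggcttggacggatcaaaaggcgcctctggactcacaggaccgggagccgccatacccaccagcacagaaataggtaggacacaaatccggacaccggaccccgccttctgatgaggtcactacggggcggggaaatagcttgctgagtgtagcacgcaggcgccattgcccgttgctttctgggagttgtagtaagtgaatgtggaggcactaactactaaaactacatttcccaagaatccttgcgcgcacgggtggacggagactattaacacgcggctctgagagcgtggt
Rrp9, chr9:106477059-106477358, strand plus: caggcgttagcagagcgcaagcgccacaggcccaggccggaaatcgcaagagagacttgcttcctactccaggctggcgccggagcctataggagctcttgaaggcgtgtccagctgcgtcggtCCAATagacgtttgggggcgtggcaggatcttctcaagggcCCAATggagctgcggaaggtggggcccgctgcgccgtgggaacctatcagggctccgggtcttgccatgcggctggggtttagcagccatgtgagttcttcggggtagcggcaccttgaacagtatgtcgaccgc
Nop2, chr6:125131633-125131932, strand plus: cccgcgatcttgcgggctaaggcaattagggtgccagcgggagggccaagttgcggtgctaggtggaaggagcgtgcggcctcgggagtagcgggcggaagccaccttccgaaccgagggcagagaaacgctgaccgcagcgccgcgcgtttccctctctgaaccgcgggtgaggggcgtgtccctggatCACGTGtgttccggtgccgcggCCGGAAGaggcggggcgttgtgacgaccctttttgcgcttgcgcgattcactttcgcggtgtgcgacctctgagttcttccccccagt
Nhp2, chr11:51619523-51619822, strand plus: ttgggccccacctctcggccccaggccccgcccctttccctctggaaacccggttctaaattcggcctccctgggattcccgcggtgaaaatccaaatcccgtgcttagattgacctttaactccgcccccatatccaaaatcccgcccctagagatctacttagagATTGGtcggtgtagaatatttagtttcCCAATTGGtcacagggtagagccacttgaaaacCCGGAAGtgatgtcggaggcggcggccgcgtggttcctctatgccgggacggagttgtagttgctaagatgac
Polr1e, chr4:45018359-45018658, strand plus: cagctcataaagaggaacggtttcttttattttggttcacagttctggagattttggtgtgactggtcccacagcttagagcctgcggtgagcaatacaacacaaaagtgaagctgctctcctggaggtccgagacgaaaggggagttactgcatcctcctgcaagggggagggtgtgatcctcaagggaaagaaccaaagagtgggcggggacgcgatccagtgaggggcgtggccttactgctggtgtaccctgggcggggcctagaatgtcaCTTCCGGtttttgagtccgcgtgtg
Utp18, chr11:93885717-93886016, strand minus: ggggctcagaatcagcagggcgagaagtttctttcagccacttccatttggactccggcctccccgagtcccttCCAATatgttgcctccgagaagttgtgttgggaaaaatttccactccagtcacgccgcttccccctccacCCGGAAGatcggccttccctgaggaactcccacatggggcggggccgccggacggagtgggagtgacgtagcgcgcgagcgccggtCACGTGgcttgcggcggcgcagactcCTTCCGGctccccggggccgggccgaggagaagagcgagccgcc

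The Nop16 window held none of the 3 motifs. Rrp9 held CCAAT alone, Nop2 had 1 E-box and 1 ETS core, Polr1e had 1 ETS core, and Nhp2 had 3 CCAAT boxes and 1 ETS core. Utp18, which fell, held all 3 motifs. Of the genes that were higher in WT 2-cell embryos, 24 had promoters in the table, 29 in all. The ETS core was in 10 of the 29 (34.5%), the E-box in 5 (17.2%) and CCAAT in 8 (27.6%), where 14.4%, 9.07% and 38.7% of the promoters of genes tested in embryos held them. No test of these shares was made.

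The libraries held 3.62 M to 50.49 M counts, and the smallest was het transcriptome 1. Eif4enif1 itself was lower in het than in WT oocytes in both fractions (log2 difference -1.24 in the translatome and -1.26 in the transcriptome, edgeR adjusted p = 0.0224 and 0.0283), and each het library lay below each WT library in 1-cell and 2-cell embryos, where the difference was not called. Het 1-cell libraries 1 and 3 stood apart: their 100 most counted genes took 6.34% and 5.53% of the counts, against 32.1% to 38.0% in the other 4 1-cell libraries, and the summed level of 11 oocyte markers was 1996 and 1603 CPM, against 21164 to 27599. Arrested library 1 also stood apart from the other 2 arrested libraries, with a summed level of 11 markers of the 2-cell stage (Zscan4, Usp17l and Tcstv genes among them) of 443 CPM, against 3783 and 2532. All 11 oocyte markers were at or above 1 CPM in all 23 libraries. Results that rest on these libraries are given with and without them.

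Levels are given as CPM, a gene's counts scaled to a common library total with TMM factors, separately for oocytes and embryos. The 46 genes took 0.243% to 0.319% of all counts in the 8 oocyte libraries and 0.258% to 0.278% in the WT 1-cell libraries. They took 0.648% to 0.746% in WT 2-cell embryos, 0.363%, 0.483% and 0.727% in the 3 het 2-cell libraries, and 0.186%, 0.275% and 0.136% in the 3 arrested libraries. The arrested libraries therefore lay below all 6 of the 2-cell libraries, as the plot of these shares shows. Counts come from bulk samples, in which fewer cells of a kind and less RNA per cell cannot be told apart.

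**Figure D1:**
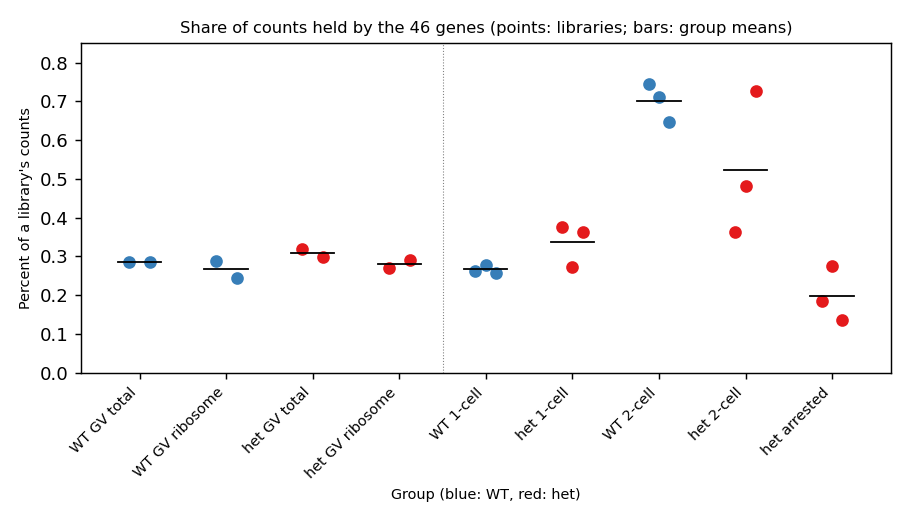
Percent of a library's counts that fell on the 46 genes (vertical axis) in each library (points, blue for WT and red for het), with group means as bars, for the 4 oocyte and 5 embryo groups. WT 2-cell libraries sit between 0.648% and 0.746%, and the 3 arrested libraries at or below 0.275%.

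The median level of the 46 genes was 31.1 CPM in WT transcriptomes and 30.6 in WT translatomes of oocytes. Within embryos it was 19.0 CPM in WT 1-cell, 75.6 in WT 2-cell, 24.9 in het 1-cell, 66.2 in het 2-cell and 22.9 in arrested libraries. Levels per kb of exon are only a rough guide between genes, since the length joins the exons of all annotated transcripts and can exceed that of the mRNA. On this scale Npm1 was the highest in WT oocyte transcriptomes with 140 ± 4.50 CPM per kb (SD, n = 2) and in WT 1-cell embryos with 339 ± 33.2 (SD, n = 3). Nhp2 took that place in WT 2-cell embryos with 610.2 ± 74.1 CPM per kb (SD, n = 3). In CPM, Npm1 was still the highest there, with a mean of 745 against 699 for Nhp2. Every one of the 46 genes was at or above 1 CPM in all 8 oocyte libraries, whereas 8 were below 1 CPM in all 3 WT 1-cell libraries. These 8 were Polr1b and Ubtf, Mybbp1a, Rrp9, Rrp12, Bop1, Nop2 and Nop16, so they cover transcription by RNA polymerase I as well as 40S and 60S assembly. In the heat map of levels they are among the darkest cells of the WT 1-cell columns.

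**Figure D2:**
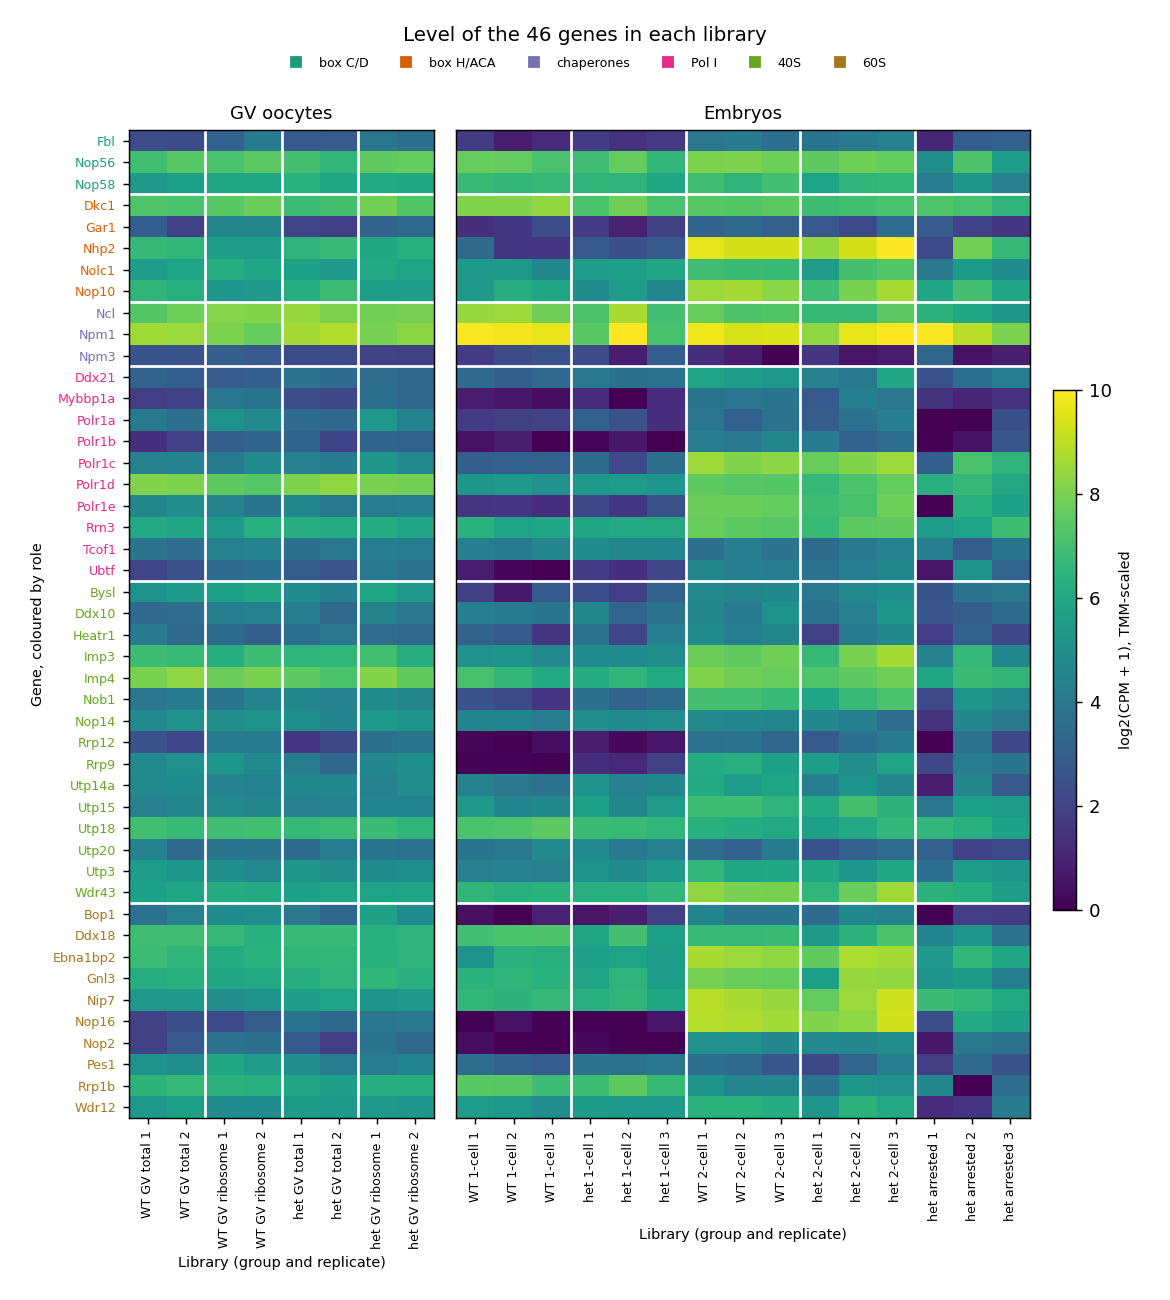
Level of each of the 46 genes (rows, grouped and coloured by role) in each of the 23 libraries (columns), as log2(CPM + 1) after TMM scaling, with oocytes and embryos scaled separately. Nop16, Nop2, Rrp9 and Rrp12 are near 0 at 1 cell in WT and higher at 2 cells, while Npm1 is high in all WT groups and lower in het 1-cell libraries 1 and 3.

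Between WT 1-cell and 2-cell embryos 27 of the 46 genes went up. With the edgeR quasi-likelihood test at an adjusted p under 0.05, 27 of 46 rose and 1 fell, where 28.8% of all 22730 genes tested rose and 15.6% fell. The median log2 difference of the 46 was 1.94, against 0.75 for all genes tested. Culture for 24 h separates the 2 stages as well as the cleavage, and these cannot be told apart. Other values moved with the stage. The mitochondrial share of counts was 2.35% to 2.58% in WT 1-cell and 9.23% to 10.2% in WT 2-cell libraries. A list of 6 blood markers summed to at most 0.274 CPM at 1 cell and to 381 to 552 CPM at 2 cells, where Hba-a1 and Hba-a2 were above 1 CPM and Hbb-bs, Hbb-bt, Alas2 and Ptprc below it in all 3 libraries. A list of 6 oviduct markers went from 2.19 to 4.87 CPM at 1 cell to 195 to 295 CPM at 2 cells, led by Epcam, with Foxj1 and Pax8 below 1 CPM in all 3 libraries. Their part in the result was not tested. The call was kept in every alternative fit and without any 1 library for 22 of the 28 genes. The other 6 were Rrn3, Nolc1, Heatr1, Imp4, Wdr43 and Utp18, the one that fell.

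RNA polymerase I and its regulators had the highest median of the 6 roles (3.61 on the log2 scale), with 8 of 10 genes called higher. Polr1e, a polymerase subunit of the heterodimer that also helps initiation, was at 1.85, 1.99 and 1.49 CPM in the WT 1-cell libraries and at 214, 212 and 196 CPM in the WT 2-cell libraries. The groups are far apart, and the log2 difference was 6.91 ± 1.43 (SE), edgeR adjusted p = 0.00267. Polr1c, a subunit that RNA polymerases I and III share, was at 7.05, 7.63 and 7.4 CPM and then at 371, 278 and 302 CPM (log2 5.47 ± 0.84 (SE), edgeR adjusted p = 0.000629). Polr1b, the second largest subunit, was at 0.411, 0.769 and 0 CPM against 17.2, 14.9 and 22.1 CPM (log2 5.56 ± 1.52 (SE), edgeR adjusted p = 0.0113). Ubtf, the upstream binding factor that keeps ribosomal DNA open, had 0.753, 0.128 and 0 CPM at 1 cell and 23, 19.0 and 17.4 CPM at 2 cells (log2 6.14 ± 1.44 (SE), edgeR adjusted p = 0.00509). Polr1b and Ubtf were therefore below 1 CPM in every WT zygote library, while Polr1c was not. Polr1d, the other subunit shared with RNA polymerase III, was already at 38.3, 42.1 and 32.3 CPM and reached 185, 168 and 162 CPM, a log2 difference of 2.24. Mybbp1a, a nucleolar repressor of transcription, rose by 4.77 on the log2 scale, the helicase Ddx21 by 2.45 and the initiation factor Rrn3 by 1.53. The 2 genes without a call were the catalytic subunit Polr1a, at 2.33, 2.69 and 2.83 CPM against 14.2, 7.7 and 12.5 CPM without overlap of the groups, and Tcof1, which encodes treacle and ranged from 16.9 to 22.3 CPM at 1 cell and from 12 to 18.5 CPM at 2 cells.

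**Figure D3:**
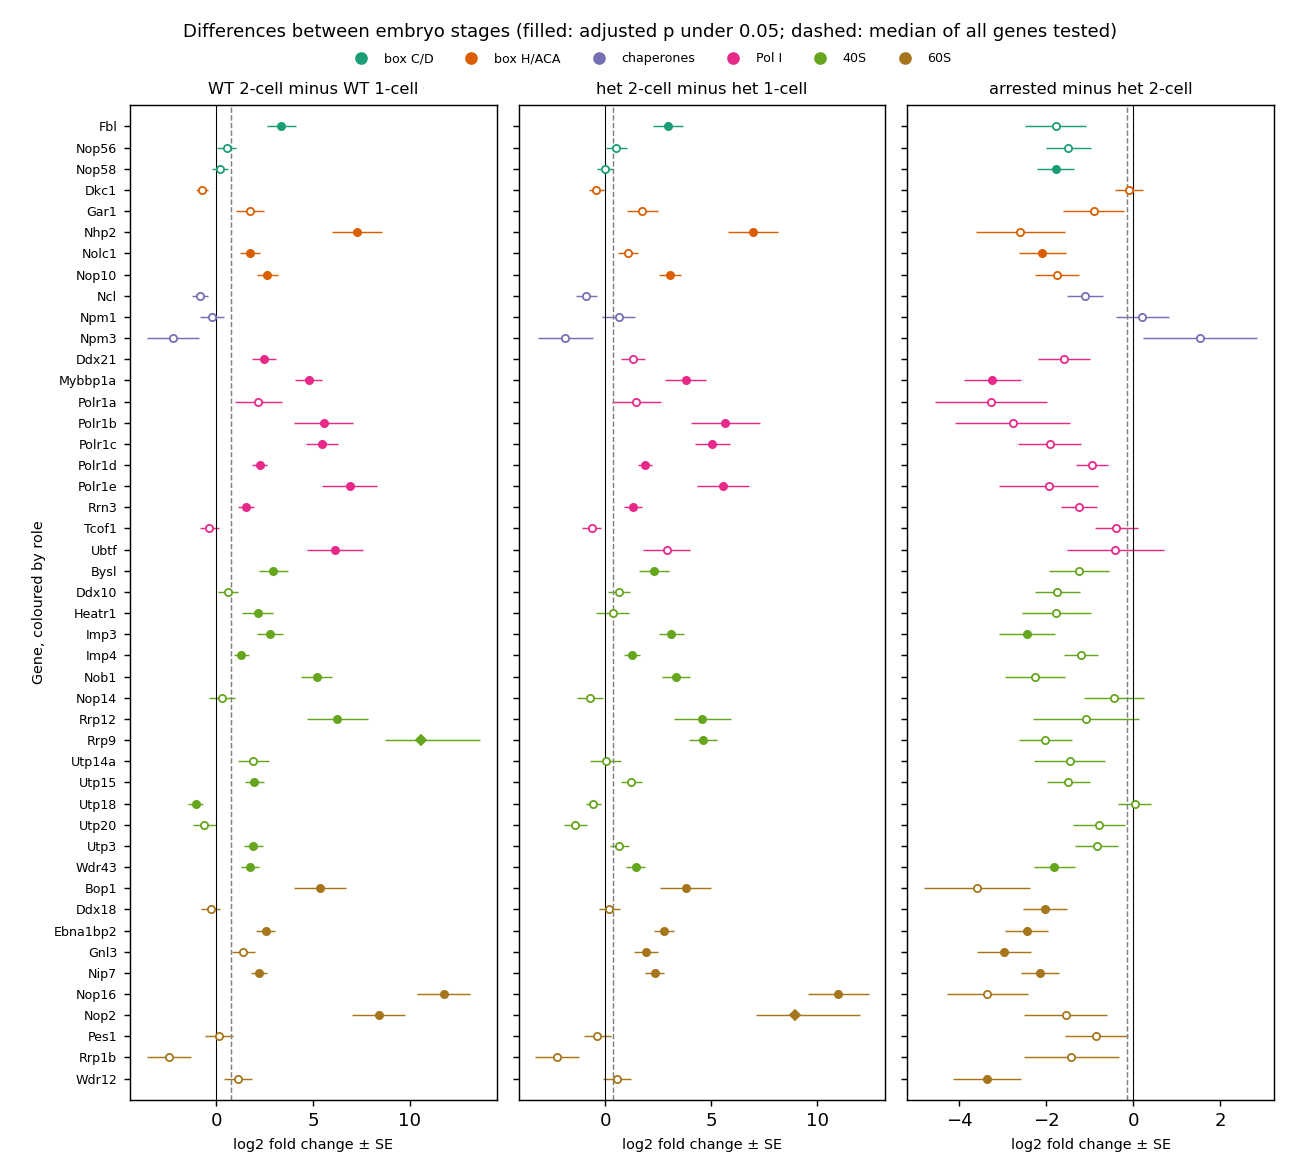
Log2 fold change ± SE of each of the 46 genes (rows, coloured by role) in 3 comparisons of embryo groups. Filled symbols mark an edgeR adjusted p under 0.05, diamonds are ratios of counts with their 95% exact counting interval where a group held 1 to 3 counts, and the dashed line is the median of all genes tested. In the WT panel 27 filled symbols lie to the right of 0, and in the arrested panel 10 lie to the left.

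Among snoRNP proteins, the 5 of the box H/ACA group included the largest difference. Nhp2, a core protein of the pseudouridylation snoRNP and of telomerase, was at 9.86, 2.12 and 2.00 CPM in WT 1-cell and 797, 647 and 654 CPM in WT 2-cell libraries (log2 7.28 ± 1.28 (SE), edgeR adjusted p = 0.00115). Nop10, another core protein, went from 41.6, 74.9 and 61.8 CPM to 374, 396 and 309 CPM (log2 2.64 ± 0.52 (SE), edgeR adjusted p = 0.00205), and the chaperone Nolc1 rose by 1.74 on the log2 scale. The other 2 core proteins of the particle did not pass the test. Dkc1, the pseudouridine synthase, stood at 274, 275 and 333 CPM at 1 cell and 169, 163 and 179 CPM at 2 cells, lower without overlap (log2 difference -0.74, edgeR adjusted p = 0.078). Gar1 was at 1.57, 2.05 and 4.16 CPM and 8.05, 9.72 and 7.38 CPM (edgeR adjusted p = 0.0655). The box C/D proteins were likewise unequal. Fbl, the methyltransferase fibrillarin, was at 2.33, 0.705 and 1.34 CPM and then 14.7, 17.0 and 11.5 CPM (log2 3.35 ± 0.75 (SE), edgeR adjusted p = 0.00403), whereas its partners Nop56 (202, 190.3 and 140.1 against 256, 267 and 219 CPM) and Nop58 (108, 95.9 and 99.0 against 119.8, 89.7 and 128 CPM) were not called.

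None of the 3 nucleolar chaperones was called, and all 3 had negative log2 differences. Npm1, the nucleophosmin found in most nucleoli, was at 987, 916 and 811 CPM in WT 1-cell and 871, 671 and 693 CPM in WT 2-cell libraries, which overlapped. Ncl, nucleolin, was at 350.1, 371 and 226 CPM and 205, 146 and 154 CPM (log2 difference -0.87, edgeR adjusted p = 0.0972). Npm3 was low, at 2.33, 4.04 and 4.93 CPM and 1.46, 0.748 and 0.047 CPM, and its counts are uncertain because a pseudogene copy, Npm3-ps1, is annotated.

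In the small subunit processome and 40S maturation group, 10 of 15 genes rose and Utp18 fell. Rrp9, a U3 snoRNP protein, had 2 counts in all 3 WT 1-cell libraries together and 6066 in the WT 2-cell libraries, a ratio of 1556-fold after scaling (95% exact counting interval 430.4 to 12848), which covers counting error only. In CPM it was at 0.0685, 0.0641 and 0 at 1 cell and 70.4, 76.5 and 49.5 at 2 cells. Rrp12, which takes part in the export and maturation of both subunits, was at 0.137, 0 and 0.308 CPM and 12.7, 13.1 and 9.52 CPM (log2 6.26 ± 1.57 (SE), edgeR adjusted p = 0.00728). Nob1, the endonuclease that makes the 3′ end of 18S ribosomal RNA, was at 4.79, 3.85 and 1.8 CPM and 133, 128 and 109 CPM (log2 5.19 ± 0.79 (SE), edgeR adjusted p = 0.000612). All 3 were separated without overlap. The others that rose had log2 differences from 1.28 (Imp4) to 2.95 (Bysl), with Imp3, Heatr1, Utp3, Utp15 and Wdr43 between them. Bysl shares 9.37% of its exon bases with Ccnd3 on the other strand, and the labels give no strand setting for the counting. Utp18, a protein of the U3-bound processome, was at 142, 149 and 179.7 CPM at 1 cell and 80.8, 71.1 and 64.8 CPM at 2 cells (log2 -1.07 ± 0.38 (SE), edgeR adjusted p = 0.0363). Its groups did not overlap, but the edgeR adjusted p was 0.0609 with RLE scaling and between 0.0663 and 0.113 when any 1 library was left out.

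In the 60S assembly group 5 of 10 genes rose. Nop16 had the largest fitted difference of the 46, with 0, 0.385 and 0 CPM (6 counts in all) in WT 1-cell and 472, 452 and 391 CPM in WT 2-cell libraries (log2 11.76 ± 1.40 (SE), edgeR adjusted p = 0.000284). Nop2, the methyltransferase that modifies a cytosine of 28S ribosomal RNA, was at 0.274, 0 and 0 CPM (4 counts in all) and 32.1, 32.5 and 24.7 CPM (log2 8.41 ± 1.37 (SE), edgeR adjusted p = 0.000793). Both genes went from almost no reads to a clear level in every library. Ebna1bp2, a partner in 27S ribosomal RNA processing, rose by 2.55 on the log2 scale, and Nip7 by 2.20. The PeBoW complex, which Pes1, Bop1 and Wdr12 form, gave unequal values. Bop1 was at 0.342, 0 and 0.873 CPM and 22.0, 13.5 and 13.9 CPM (log2 5.35 ± 1.34 (SE), edgeR adjusted p = 0.0072), Pes1 at 11.2, 7.82 and 6.52 CPM and 11.6, 10.2 and 5.41 CPM with overlap, and Wdr12 at 44.2, 39.8 and 29.2 CPM and 81.6, 82.2 and 71.8 CPM without overlap (edgeR adjusted p = 0.22). Rrp1b had the lowest log2 difference of all 46 genes, -2.47 (edgeR adjusted p = 0.0887), with 173, 169 and 115 CPM at 1 cell and 34.8, 22.2 and 23.2 CPM at 2 cells.

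**Figure D4:**
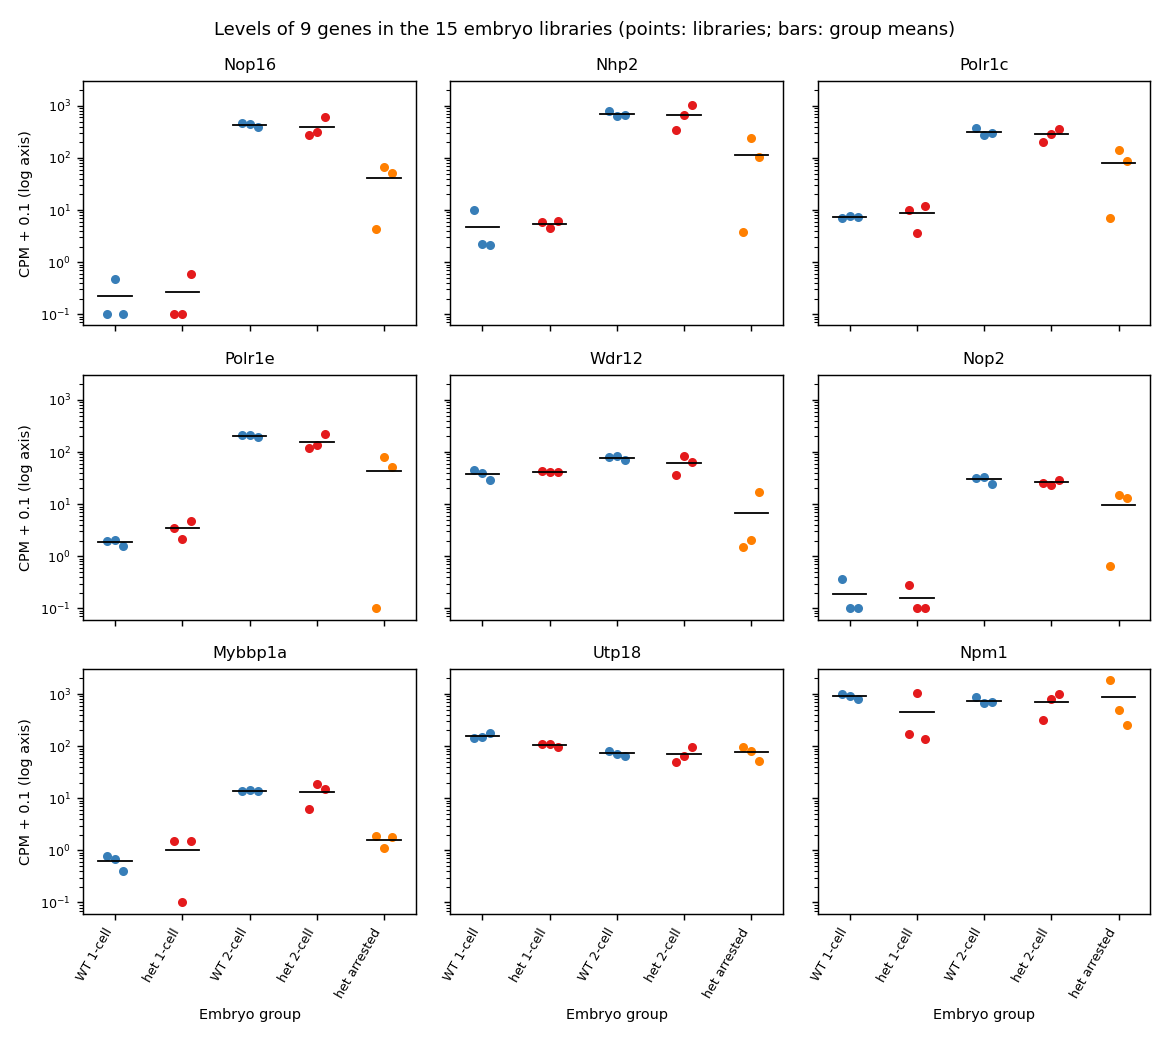
Levels of 9 of the genes in the 15 embryo libraries, as CPM + 0.1 on a log axis (points are libraries, bars group means). Nop16 and Nop2 are near the lower end of the axis at 1 cell and Polr1e is low but above it, and all 3 are higher in both 2-cell groups. Arrested library 1 is the lowest arrested library for these genes, though for Nop16 it lies above the 1-cell libraries. Mybbp1a and Wdr12 are low in all 3 arrested libraries.

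In het embryos 22 of the 46 genes rose between the 1-cell and 2-cell stages and none fell, where 22.8% and 13.9% of the 23656 genes tested did so. The median log2 difference of the 46 was 1.38, against 0.36 for all genes, a median that RLE scaling moves to 0.53. Of the 27 genes that rose in WT embryos 21 (77.8%) also rose in het embryos, and they are 95.5% of the 22, Gnl3 being the other. The same overlap over all genes was not computed, so these shares are not shown to be particular to the 46. The het and WT comparisons share no library. Each fit took its spread from libraries of both genotypes, though, so the calls are not fully independent. Nop16 was at 0, 0 and 0.506 CPM in het 1-cell and 277, 313 and 616 CPM in het 2-cell libraries (log2 10.97 ± 1.44 (SE), edgeR adjusted p = 0.000217). Nhp2 was at 5.74, 4.48 and 6.01 CPM and 337, 658 and 1024 CPM (log2 6.96 ± 1.18 (SE), edgeR adjusted p = 0.000756). Both were low at 1 cell, as in WT. For Nop2 there were 2 counts at 1 cell and 1702 at 2 cells, a ratio of 497-fold (95% exact counting interval 137 to 4109). Gnl3, nucleostemin, a GTP-binding protein of the nucleolus, was at 56.1, 88.6 and 47.3 CPM and 48.4, 339 and 334 CPM, so its het 2-cell library 1 overlapped the 1-cell group (log2 1.91 ± 0.57 (SE), edgeR adjusted p = 0.0174). Npm1 was at 172, 1042 and 137 CPM and Ncl at 145, 424 and 129 CPM in het 1-cell libraries, so both were low in libraries 1 and 3, where the oocyte markers were low too, and the part of that composition in the result was not tested. Leaving out het 1-cell libraries 1 and 3 leaves 1 library in that group, whose spread is taken from the others. Fewer of the 46 genes and fewer of all genes were then called. The genes Nhp2, Nop16, Nop2, Mybbp1a, Rrp9 and Polr1c kept the call in every alternative and without any 1 library.

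No gene of the 46 was called between het and WT embryos with edgeR at either stage. At 1 cell the edgeR test called 0 of 46 genes, as it called 0% of all genes tested. An unadjusted p under 0.05 was found for 4 of the 46 and for 889 of all 23656 genes. DESeq2 called 1 of the 46 there, and 48 higher and 35 lower of all 21651 genes. At 2 cells the edgeR test called 0 of 46, against 0.0044% of all genes. An unadjusted p under 0.05 was found for 0 of the 46 and for 981 of all 22730 genes. DESeq2 also called 0 of the 46, and 48 higher and 26 lower of all 24464 genes. The median log2 difference between het and WT was 0.14 at 1 cell, against 0.11 for all genes. At 2 cells it was -0.19, against 0.02 for all genes. There 36 of the 46 values were negative, and the share of negative values over all genes was not computed. Without het 1-cell libraries 1 and 3 the edgeR test also called 0 of 46 genes at 1 cell, with a median of 0.04. Leaving out 1 library at a time moved the 2-cell median between -0.45 and 0.00, the value near 0 being the one without het library 1. Het 2-cell library 1 was the lowest of its group for 37 of the 46 genes. The difference between genotypes in the change from 1 to 2 cells was called for 0 of 46 genes (0.00423% of all genes) with edgeR. An unadjusted p under 0.05 was found for 1 of the 46 and for 1049 of all 23656 genes. With DESeq2 it was called for 1 of the 46 genes, and over all 23679 genes for 33 higher and 46 lower. Without het 1-cell libraries 1 and 3 it was called for 0 of 46 genes as well.

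The gene behind both DESeq2 calls was Rrp9. It was at 0.0685, 0.0641 and 0 CPM in WT and 1.5, 1.16 and 2.79 CPM in het 1-cell libraries, which do not overlap. That is 2 counts against 74, a ratio of 48.0-fold (95% exact counting interval 12.8 to 404, counting error only). The edgeR adjusted p was 0.362 and the DESeq2 adjusted p 0.00177. For the genotype difference in the stage change the edgeR adjusted p was 0.507 and the DESeq2 adjusted p 0.00237. Whether Rrp9 was called depended on the fit and on the libraries in it. At 1 cell the edgeR adjusted p was 1 without both of them. It was 0.00658 without het library 2, the only het 1-cell library of usual composition, and between 0.598 and 1 when any other 1-cell library was left out. In the other alternatives with edgeR it was between 0.058 and 1. For the stage change it was 1.00 without both het 1-cell libraries, 0.0172 without het 1-cell library 2, 0.0381 when only the groups compared were fitted, and between 0.126 and 1.00 in the other edgeR alternatives. Next by p at 1 cell came Ubtf, with 0.753, 0.128 and 0 CPM in WT and 2.38, 1.52 and 3.29 CPM in het libraries, higher in each het library (edgeR adjusted p = 1). At 2 cells the smallest p values were those of Utp14a, 67.4, 45.5 and 57.8 CPM in WT and 19.1, 35.2 and 24.0 CPM in het, and Dkc1, 169, 163 and 179 CPM in WT and 117, 125 and 139 CPM in het. Both were lower in each het library, each with an edgeR adjusted p of 1. Part of the Utp14a exons, 11.5% of the bases, overlaps a gene on the other strand.

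Arrested embryos had a smaller share of their counts on some of these genes than het embryos that had cleaved after the same 24 h. Of the 46 genes 10 fell and none rose with edgeR, against 3.39% and 2.2% of all genes tested, and the median log2 difference was -1.66 against -0.14 for all genes. Every arrested library lay below every het 2-cell library for 27 of the 46 genes, which holds for 16.2% of all genes tested. Only 3 values were positive, those of Npm3, Npm1 and Utp18, and none of these was called. By role, 5 of the 10 genes of 60S assembly fell, with a median of -2.30, as did 2 of 15 in the 40S group, and 1 each in the box C/D, box H/ACA and polymerase I groups.

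Wdr12 had the largest called difference, with 36.1, 84.2 and 64.8 CPM in het 2-cell and 1.41, 1.95 and 16.8 CPM in arrested libraries (log2 -3.37 ± 0.78 (SE), edgeR adjusted p = 0.031). Mybbp1a was at 6.13, 18.4 and 14.7 CPM and 1.79, 1.03 and 1.7 CPM (log2 -3.24 ± 0.65 (SE), edgeR adjusted p = 0.0251). For both, all 3 arrested libraries were low. Gnl3 was at 48.4, 339 and 334 CPM and 35.0, 43.3 and 18.8 CPM (log2 -2.98 ± 0.63 (SE), edgeR adjusted p = 0.0255). Ebna1bp2 was at 186, 436 and 405 CPM and 41.8, 97.9 and 59.1 CPM (log2 -2.45 ± 0.50 (SE), edgeR adjusted p = 0.0252). Nip7 was at 192, 363 and 596 CPM and 113, 96.2 and 66.8 CPM (log2 -2.15 ± 0.43 (SE), edgeR adjusted p = 0.0252). In Gnl3, Ebna1bp2 and Nip7 the lowest 2-cell value came from het 2-cell library 1, and in Gnl3 it was close to the highest arrested one. The other 5 that fell were Ddx18 and Nop58, Nolc1, Imp3 and Wdr43, with log2 differences from -2.44 to -1.79. Nop16, with 277, 313 and 616 CPM and 4.33, 68.3 and 51.6 CPM, was lower in each arrested library but was not called (log2 difference -3.36, edgeR adjusted p = 0.0534). Npm1 ranged widely, at 1835, 501 and 257 CPM in the 3 arrested libraries and 319, 790.0 and 998 CPM in the 2-cell libraries.

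The number that fell rests on few libraries, as does the number over all genes, 771 in the fit reported. It was 0 without het 2-cell library 2 or 3 and when only the 2 groups were fitted, and in each of these fits 0 of all genes tested were called. It was 6 without arrested library 1 (678 of all genes fell), 20 without arrested library 2 (1969 of all genes) and 25 with DESeq2 (2665 of all genes), while the median log2 difference of the 46 stayed between -2.14 and -1.35 when 1 library was left out. Arrested library 1 was the lowest of its group for 31 of the 46 genes and had the lowest summed 2-cell-stage markers. All 11 of these markers were at or above 1 CPM in every 2-cell library and 9 in every arrested library, with sums of 1215 to 3595 CPM in het 2-cell and 443 to 3783 CPM in arrested embryos. The mitochondrial share was 15.7% to 17.3% in arrested and 13.6% to 19.8% in het 2-cell libraries. The blood list summed to 7.44 CPM in arrested library 1 and to 399 and 211 CPM in the other 2, against 175 to 309 CPM in het 2-cell libraries, and the oviduct list to 11.4, 169 and 83.0 CPM, against 168 to 239.8 CPM. Their part in the result was not tested.

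Set against 1-cell embryos, the arrested embryos had some of these genes higher and some lower. Against het 1-cell embryos 6 of 46 rose and 6 fell (9.97% and 3.91% of all genes tested), and against WT 1-cell embryos 9 rose and 7 fell (12.6% and 4.71%). Both comparisons use the same arrested libraries, and genotype as well as culture differs in the one with WT. Nop16 was at 4.33, 68.3 and 51.6 CPM in arrested libraries, with a log2 difference of 7.70 ± 1.30 (SE), edgeR adjusted p = 0.00273 from het and 8.27 ± 1.26 (SE), edgeR adjusted p = 0.00243 from WT 1-cell embryos. Nop2 was at 0.565, 15.1 and 12.8 CPM, with 466 counts against 2 in het 1-cell embryos, a ratio of 207-fold (95% exact counting interval 57.0 to 1716). Rrp9 was at 3.48, 18.0 and 13.6 CPM, and its ratio to WT 1-cell embryos was 325-fold (563 against 2 counts, interval 89.5 to 2688). For Nop16 against het 1-cell embryos the log2 difference was 12.62 without het 1-cell library 3 and 12.55 without libraries 1 and 3. Both leave no count in the 1-cell group, so these fitted values depend on the prior count and are no bound. The call was lost without libraries 1 and 3 (edgeR adjusted p = 0.0802) and when only the groups compared were fitted (0.0763). In all 3 of these genes even arrested library 1, the lowest, lay above every WT 1-cell library. For Nhp2 (3.67, 243 and 102 CPM), Polr1c (6.87, 139.7 and 89.0 CPM) and Polr1e (0, 78.9 and 51.7 CPM), which rose in both comparisons, arrested library 1 lay within or below the range of the 1-cell libraries, and the other 2 were above all of them.

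The genes that were lower in arrested than in 1-cell embryos were others. Rrp1b, Wdr12, Utp20, Ncl, Ddx18 and Nop58 fell against het and WT 1-cell embryos alike, and Dkc1 against WT alone, where the difference between the 2 comparisons was not tested. Nop58 was at 17.8, 38.0 and 19.3 CPM in arrested, 91.7, 90.4 and 63.6 CPM in het 1-cell and 108, 95.9 and 99.0 CPM in WT 1-cell libraries (log2 -2.04 ± 0.42 (SE), edgeR adjusted p = 0.00913 against WT). Ncl was at 84.9, 62.7 and 38.6 CPM, against 350.1, 371 and 226 CPM in WT 1-cell libraries (log2 -2.39 ± 0.43 (SE), edgeR adjusted p = 0.0044). Ddx18, a helicase of 60S assembly, was at 21.6, 36.8 and 12.4 CPM, against 127, 142 and 147 CPM (log2 -2.58 ± 0.52 (SE), edgeR adjusted p = 0.00781). In each of the 3, every arrested library was below every 1-cell library of both genotypes. Wdr12 was at 43.2, 41 and 41.5 CPM in het 1-cell libraries, so its arrested level of 1.41, 1.95 and 16.8 CPM was below that of zygotes and of 2-cell embryos alike. The median over the 46 genes was near 0 in both comparisons, 0.05 against het and -0.04 against WT, where all genes tested had 0.28 and 0.43. Without het 1-cell libraries 1 and 3 the number called against het 1-cell embryos was 1, with 19 higher and 85 lower over all genes. Without het 1-cell library 1, 2 or 3 alone it was 3, 4 and 6, and without arrested library 1 it was 17. Against WT the number of the 46 called was 8, 6 and 6 without WT 1-cell library 1, 2 or 3 and 20 without arrested library 1. Over all genes these fits called 1365, 984, 943 and 5167 higher and 521, 388, 432 and 1913 lower, in the same order. The fit reported called 2853 higher and 1071 lower. Nop16, Rrp9, Ncl and Ddx18 kept the call against WT in every alternative and without any 1 library.

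In WT GV oocytes the ribosome-bound fraction was richer than total mRNA in several of these genes. Of the 46, 8 were higher and 2 lower in the translatome with edgeR, against 8.95% and 5.64% of all 22409 genes tested, and the median log2 difference was 0.12, against -0.04 for all genes. Mybbp1a was at 2.64 and 2.84 CPM in transcriptomes and 14.1 and 13.4 CPM in translatomes (log2 2.33 ± 0.32 (SE), edgeR adjusted p = 0.0012). Gar1 was at 7.01 and 2.84 CPM and 22.9 and 22.3 CPM (log2 2.20 ± 0.39 (SE), edgeR adjusted p = 0.00482), and Rrp12 at 4.85 and 3.26 CPM and 15.8 and 17.0 CPM (log2 2.01 ± 0.34 (SE), edgeR adjusted p = 0.0035). These 3 kept their calls in every alternative and without any 1 library. Of the polymerase I group 4 of 10 genes were higher, namely Mybbp1a and also Polr1a, Polr1b and Ubtf, and Fbl and Nop2 completed the 8. The 2 lower genes were Nhp2, with 102 and 94.2 CPM in transcriptomes and 46.1 and 45.8 CPM in translatomes (log2 -1.10 ± 0.24 (SE), edgeR adjusted p = 0.0109), and Nop10, with 91.9 and 76.8 CPM and 37.2 and 40.2 CPM (log2 -1.12 ± 0.26 (SE), edgeR adjusted p = 0.0148). Thus within the box H/ACA particle Gar1 mRNA was relatively rich, and Nhp2 and Nop10 mRNA relatively poor, in the ribosome-bound fraction.

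Het oocytes gave 8 genes higher and 1 lower in the translatome (6.19% and 1.91% of all genes tested). Of the 8 higher genes of WT oocytes 6 (75%) were among the 8 of het oocytes (75%): Mybbp1a, Gar1, Rrp12, Polr1a, Ubtf and Nop2. The same overlap over all genes was not computed. The translatome and transcriptome comparisons of the 2 genotypes share no library. The same fit of all 8 oocyte libraries gave the spread for both, without pairing the fractions, so the lists are not fully independent. Bop1 was at 14.5 and 8.74 CPM and 52.0 and 27.7 CPM in het (log2 1.83 ± 0.37 (SE), edgeR adjusted p = 0.0108) and Bysl at 28.0 and 19.0 CPM and 59.0 and 41.3 CPM (log2 1.12 ± 0.30 (SE), edgeR adjusted p = 0.037). Nop10 was the gene that was lower (log2 -1.01 ± 0.26 (SE), edgeR adjusted p = 0.0335). In the scatter plot of both genotypes these genes lie in the upper right and lower left corners. The difference between the genotypes in this ratio was called for 0 of 46 genes with edgeR (0.0134% of all genes). An unadjusted p under 0.05 was found for 4 of the 46 and for 1999 of all 22409 genes. DESeq2 called 0 of the 46, and 14 higher and 98 lower of all 15795 genes. The smallest p was that of Ncl, at 163 and 219 CPM and 289 and 284 CPM in WT and 353 and 262 CPM and 237 and 245 CPM in het oocytes, transcriptome first (log2 difference of the ratios -0.93, edgeR adjusted p = 0.519). Leaving out any 1 library leaves 1 in its group. In both genotypes fewer of the 46 genes and fewer of all genes were then called. The drop was largest, for the 46 and for all genes, in het oocytes without transcriptome 2. That fit leaves the library of 3.62 M counts alone in its group.

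**Figure D5:**
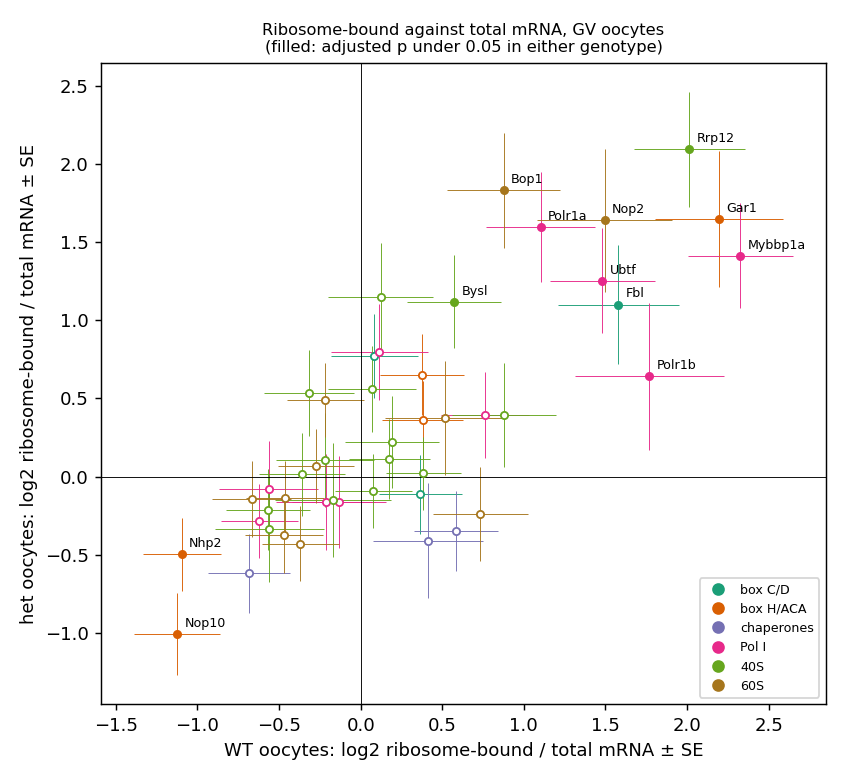
Log2 ratio of ribosome-bound to total mRNA ± SE of the 46 genes in WT oocytes (horizontal axis) and het oocytes (vertical axis), coloured by role. Filled, named points had an edgeR adjusted p under 0.05 in at least 1 genotype. Mybbp1a, Gar1 and Rrp12 lie at the upper right, and Nop10 and Nhp2 at the lower left.

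Between het and WT oocytes few of these genes differed. In the translatome 1 of 46 rose and 1 fell (2.61% and 2.01% of all genes tested), and in the transcriptome 1 rose and 0 fell (1.41% and 1.14%). With RLE scaling the transcriptome split of all genes called moved from 317 higher and 255 lower to 346 and 181. The gene that rose was Nop16 in both fractions. It was at 3.72 and 6.71 CPM in WT and 14.3 and 14.9 CPM in het translatomes (log2 1.5 ± 0.37 (SE), edgeR adjusted p = 0.0369), and at 2.95 and 4.24 CPM in WT and 13.5 and 9.46 CPM in het transcriptomes (log2 1.65 ± 0.38 (SE), edgeR adjusted p = 0.0383). The 2 fractions carry shared specimen numbers and so are not independent, and in each fraction the het libraries were above the WT libraries. Pes1 was at 63.4 and 44.0 CPM in WT and 17.3 and 21.7 CPM in het translatomes (log2 -1.46 ± 0.30 (SE), edgeR adjusted p = 0.0184), and in transcriptomes at 34.0 and 30.6 CPM in WT and 29.0 and 18.0 CPM in het, where it was not called. With 2 libraries a group these calls depend on each library. The edgeR adjusted p for Nop16 was between 0.0217 and 0.197 in the translatome and between 0.0735 and 0.137 in the transcriptome when any 1 library was left out, and for Pes1 between 0.0188 and 0.18. Medians over the 46 genes were 0.06 in the translatome and -0.10 in the transcriptome, against 0.04 and -0.04 for all genes. DESeq2 called 4 of the 46 genes in the translatome, and 1027 higher and 833 lower of all 19454 genes. In the transcriptome it called 3 of the 46, and 775 higher and 648 lower of all 17990 genes.

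Summed levels of 16 granulosa cell markers were higher in het than in WT oocytes: 591 to 887 CPM against 170 to 348 CPM in translatomes and 220 to 325 CPM against 90 to 169 CPM in transcriptomes. Inha led the list in each oocyte group and made up 454 of 591 CPM and 740 of 887 CPM in the het translatomes. Inha, Fst and Amhr2, among others, were higher in each het library of both fractions. Cyp19a1 was lower in het transcriptomes (33.5 and 26.2 CPM, against 40.6 and 47.8 CPM for WT) and overlapped in translatomes. Inhba and Col4a1 overlapped between genotypes in both fractions. Of the 16 markers, 13 were at or above 1 CPM in every het translatome library against 10 in every WT one. Has2 was below 1 CPM in all 8 oocyte libraries. The sum of the 6 oviduct markers ranged from 30.4 to 48.0 CPM in het translatomes against 7.59 to 14.4 CPM in those of WT, and from 15.5 to 25.2 CPM against 4.15 to 5.82 CPM in the transcriptomes. Krt8 led them, and Foxj1 and Pax8 were below 1 CPM in all 8 libraries. The mitochondrial share of counts was 0.657% to 1.32% in het and 0.158% to 0.311% in WT libraries. Their part in the differences of Nop16 and Pes1 was not tested.

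A further 102 genes of ribosome biogenesis, listed by role with earlier results of these data known, were all tested beside the 46. Between WT 1-cell and 2-cell embryos 58 rose and 9 fell (28.8% and 15.6% over all genes), with a median log2 difference of 2.51. In het embryos 52 rose and 9 fell (22.8% and 13.9% over all genes). Mak16, a 60S factor (log2 10.32 ± 1.33 (SE), edgeR adjusted p = 0.000332), Znhit3, a snoRNP assembly factor (log2 6.81 ± 0.91 (SE), edgeR adjusted p = 0.00036), and Taf1d, a subunit of the polymerase I initiation factor SL1 (log2 3.49 ± 0.46 (SE), edgeR adjusted p = 0.000359), were among the rises in WT with the smallest p. Riok1, a kinase of 40S maturation, fell (log2 -3.76 ± 0.44 (SE), edgeR adjusted p = 0.00027), as did Npm2, the oocyte nucleoplasmin (log2 -2.56 ± 0.38 (SE), edgeR adjusted p = 0.000539). In arrested against het 2-cell embryos 31 of the 102 fell and 1, Riok1 (log2 2.27 ± 0.41 (SE), edgeR adjusted p = 0.0219), rose, against 3.39% and 2.2% of all genes. The numbers against 1-cell embryos were 6 higher and 16 lower for het (9.97% and 3.91% over all genes) and 9 higher and 21 lower for WT (12.6% and 4.71%). In oocyte translatomes 1 of the 102 was higher and 3 were lower in het than in WT, shares close to the 2.61% and 2.01% over all genes. Between fractions 17 were higher and 5 lower in the translatome of WT oocytes (8.95% and 5.64% over all genes) and 13 and 3 in that of het oocytes (6.19% and 1.91%). Alternatives were not summarised for these 102 genes. For arrested against het 2-cell embryos 0 of all genes tested were called without het 2-cell library 2 or 3. With only the 2 groups fitted, 0 of all genes were called against het 2-cell and 0 against het 1-cell embryos. None of the calls of the 102 genes in those comparisons was therefore kept in these fits.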

How the data were processed

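The libraries are 8 of GV oocytes (ribosome-bound mRNA isolated with RiboLace, and total mRNA) and 15 of embryos (total mRNA). The deposited values are raw counts per gene, one table for oocytes and one for embryos. Per the submitters' processing notes, the authors used Trim Galore 0.6.4, HISAT2 2.1.0 and featureCounts 1.6.5 with mm10. No annotation release, strand setting or handling of multimapping is named there or in the labels. Rows were matched by Ensembl identifier, since 28 symbols had turned into dates in each table, none of them one of the 46. Exon lengths and overlaps come from GENCODE vM21 (mm10) and promoters from RefSeq (GRCm38.p6).

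Counts were filtered by filterByExpr, TMM-scaled and tested with the edgeR 4.0.16 quasi-likelihood F test (R 4.3.3, limma 3.58.1), with Benjamini-Hochberg adjustment over all genes and calls at an adjusted p under 0.05. SE is the log2 value divided by the square root of F. Oocytes were fitted together (22409 genes), embryos without het 1-cell libraries in a fit of 12 libraries (22730 genes), and all 15 embryo libraries (23656 genes) where het 1-cell embryos were compared. The code was tested on simulated data. Alternatives were DESeq2 1.42.0, RLE scaling, no filter on low counts, only the groups compared, a replicate block, and leaving out libraries. Counting intervals are exact at 95%, and as no molecular identifiers are named they cover counting error only.

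The labels' descriptions give a translatome and a transcriptome library a shared number, read here as 1 oocyte specimen split into 2 fractions and used as the block. Deviations of same-numbered libraries correlated at 0.243 in het and 0.0745 in WT over 11235 genes. The 46 genes and the other lists were chosen with earlier results of these data known. Any of the 46 may be named with its value. Values per library are given for genes that represent a role and, per comparison, for up to 4 called genes with the smallest p and up to 3 with the largest change in each direction, or for the 2 with the smallest p where none was called.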

Additional observations from a re-analysis of the deposited data

How the results depend on the processing

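No called gene changed direction in the alternatives run. The alternatives were run for all genes. For genes without a call they entered only the counts and medians, apart from the one with the smallest p where no gene was called. The median log2 difference of the 46 genes changed sign in some alternatives where it was near 0: arrested against het and WT 1-cell embryos, het against WT 2-cell embryos and the genotype difference between fractions. Of the values of single called genes under alternatives, 965 stayed on the same side of the threshold and 286 lost the call. DESeq2 called 4 genes for genotype in oocyte translatomes, 3 in transcriptomes, 1 in 1-cell embryos, 1 for the genotype difference in the stage change and 25 for arrested against het 2-cell embryos. Its counts over all genes are given with each of these comparisons above. Without a filter on low counts 2 genes were called in oocyte transcriptomes. When only the groups compared were fitted, 1 gene was called for the genotype difference in the stage change, 0 for arrested against het 2-cell, 0 against het 1-cell and 4 against WT 1-cell embryos. Over all genes the first of these gave 1 higher and 2 lower, and the last 347 higher and 232 lower. The other 2 gave 0 over all genes. These smaller fits held 41 to 46 of the 46 genes, and Nop2 and Rrp12 had no value there for arrested against WT 1-cell embryos, nor Nop2 against het. Without het 1-cell libraries 1 and 3, fewer genes were called between het stages and for arrested against het 1-cell embryos. This held among the 46 and among all genes alike.

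With the replicate block 5 genes were called for arrested against het 2-cell and 8 for arrested against WT 1-cell embryos. Over all genes it gave 268 higher and 395 lower against het 2-cell and 1494 higher and 699 lower against WT 1-cell embryos. Embryo replicate numbers are only numbers. With the specimen block 12 genes were called between fractions in WT and 10 in het oocytes, and the block moved no other count of calls by over 1.5 times. Over all genes the specimen block gave 2238 higher and 1660 lower in WT and 1723 higher and 650 lower in het oocytes.

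Leaving out 1 library at a time gave 0 to 2 calls for genotype in translatomes (median log2 0.01 to 0.17) and 0 in transcriptomes (-0.08 to -0.01). Between fractions it gave 3 to 8 in WT (0.028 to 0.29) and 0 to 7 in het (0.11 to 0.27), and 0 for their difference (-0.03 to 0.21). By genotype, leaving out 1 library gave 0 to 1 calls at 1 cell (0.026 to 0.31) and 0 at 2 cells (-0.45 to 0.00). Between stages it gave 22 to 26 in WT (1.71 to 2.11), 15 to 24 in het (1.14 to 1.67) and 0 to 1 for their difference (-0.56 to -0.13). Arrested embryos gave 0 to 20 against het 2-cell (-2.14 to -1.35), 3 to 17 against het 1-cell (-0.16 to 0.23) and 6 to 20 against WT 1-cell embryos (-0.10 to 0.05). Counts over all genes changed between these fits too, from 0 to 1969 lower for arrested against het 2-cell embryos. In oocytes the lone library left in a group is assumed to vary like the other groups. Depth limits genes with few counts, such as Rrp9 and Nop2 in 1-cell embryos.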
